A study of Mus musculus with 8 samples.

Results

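Peptide loading and the immunoproteasome were followed through 10 genes in RNA of mouse ear epidermis: the inducible catalytic subunits Psmb8, Psmb9 and Psmb10, the PA28 activator genes Psme1 and Psme2, the peptide transporter genes Tap1 and Tap2, Tapbp (tapasin), the trimming peptidase gene Erap1 and the regulator gene Nlrc5. The genes were taken by name from the 51912 gene identifiers in the count files. No filter on their values was used, but earlier results of these data were known when they were chosen. All 10 were among the 16512 genes that passed the filter on low counts. Epidermal sheets came from 8-week-old mice labelled A20KIKO (A20F/F Krt5-CreERT2+, n = 4) and A20WT (A20F/F Krt5-CreERT2-, n = 4), each library from a different mouse. All mice received 1 mg of tamoxifen by intraperitoneal injection on 2 consecutive days and were killed 7 days after the first injection. Both groups therefore carried the conditional A20 alleles and the tamoxifen. A20 is the protein of the gene Tnfaip3, and it edits ubiquitin chains to hold back inflammatory signalling. By the labels the A20KIKO mice also carried a tamoxifen-activated Cre recombinase under the Krt5 promoter, which is active in basal keratinocytes, so that the presence of Cre and the deletion cannot be told apart. The comparison addresses how the transcripts of peptide processing and loading differ 1 week after induction.

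Class I MHC molecules show short peptides of the cell's own proteins to CD8+ T cells. The proteasome cuts the peptides, the TAP transporter carries them into the endoplasmic reticulum, tapasin holds TAP next to empty class I molecules, and ERAP1 trims peptides that are too long. Under interferon, cells build the immunoproteasome, in which inducible catalytic subunits take the place of the standard ones, and the PA28 ring opens its ends. NLRC5 drives transcription of class I genes and of several genes of this pathway, and keratinocytes as well as Langerhans cells, the dendritic cells of the epidermis, can run the pathway.

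Of the 10 genes, 9 were higher in A20KIKO-labelled than in A20WT-labelled mice and 0 were lower, against 2.43% of all tested genes higher and 1.06% lower (edgeR quasi-likelihood test over all genes, Benjamini-Hochberg adjusted p under 0.05). None of the 10 was lower at an unadjusted p under 0.05, nor by DESeq2 or limma-voom. Psme1 was the gene that did not pass. In each of the 10, every A20KIKO-labelled library lay above every A20WT-labelled one, which held for 5.78% of all tested genes. The median log2 change of the 10 was 1.08, beside -0.01 over all tested genes. The inducible catalytic subunits had log2 changes between 1.48 and 1.74, the TAP genes and Tapbp between 1.06 and 1.17, and Psme1, Psme2, Erap1 and Nlrc5 between 0.42 and 0.80. In whole sheets, more cells that express a gene and more RNA per cell cannot be told apart.

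**Figure D1:**
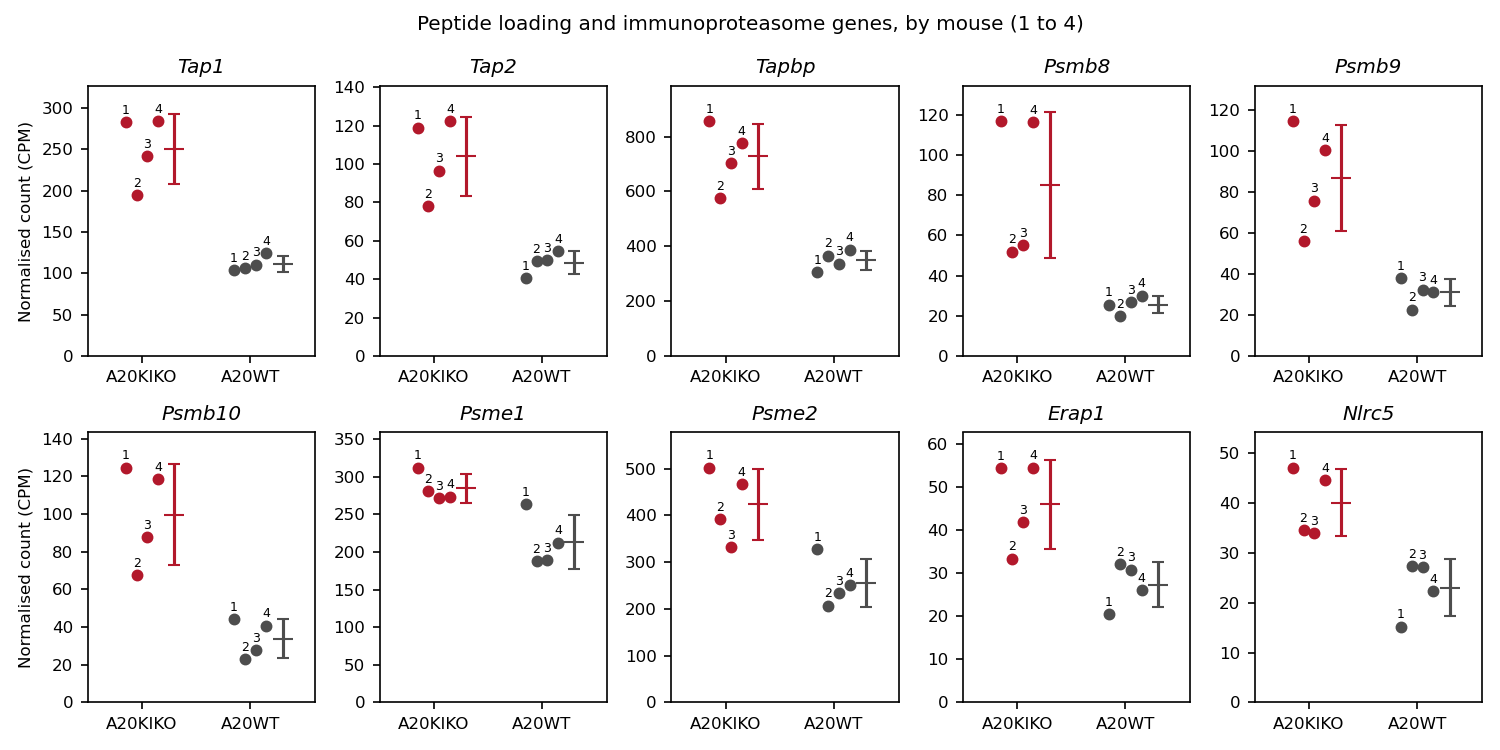
Normalised count (CPM, linear axis from 0) of each gene in each mouse, with A20KIKO at the left and A20WT at the right of each panel. Points carry the mouse number, and the bars are mean ± SD (n = 4 each). The groups do not overlap in any panel, but the gap is narrow for Psme1, Psme2 and Erap1.

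Counts summed over both lanes ranged from 40451075 to 89624373 per library, and the lowest count of any member in any library was 1096. Levels are given as CPM, the normalised count after scaling for library size and composition. The kit named in the labels amplifies cDNA without keeping strand or molecular identifiers, so reads of overlapping genes on opposite strands are not separable and PCR copies count as reads. Tnfaip3, the targeted gene, averaged 74.0 ± 17.3 CPM in A20KIKO-labelled and 16.5 ± 2.65 CPM in A20WT-labelled mice (SD, n = 4 each; log2 change 2.16, edgeR adjusted p = 8.36e-05), so it was higher and not lower under the knockout label. One count for the whole gene does not test a deletion of some exons, and the group names here are those of the labels. Markers of basal keratinocytes summed to 22912 to 28636 CPM in A20KIKO-labelled and 31122 to 41308 CPM in A20WT-labelled libraries. Suprabasal markers summed to 30836 to 39436 CPM in A20KIKO-labelled and 26628 to 37827 CPM in A20WT-labelled libraries, so keratinocyte transcripts were abundant in all 8.

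The 3 inducible catalytic subunits had the highest log2 changes of the 10 genes, with intervals that overlap those of Tap1, Tap2 and Tapbp. Psmb8, also called LMP7, replaces the standard subunit Psmb5 in the newly built particle. Psmb9, also called LMP2, replaces Psmb6, and Psmb10, also called MECL-1, replaces Psmb7. Psmb9 lies back to back with Tap1 on chromosome 17, with the transcription starts of both genes at the ends of a short shared stretch. That stretch is shown because it lies between the starts of a proteasome gene and a transporter gene. It is given from RefSeq on GRCm38.p6, chr17:34187331-34187555, + strand, reading towards Tap1, with a CCAAT box and a GC box (CCGCCC, read as GGGCGG on the other strand) in capitals.
Tap1-Psmb9 stretch: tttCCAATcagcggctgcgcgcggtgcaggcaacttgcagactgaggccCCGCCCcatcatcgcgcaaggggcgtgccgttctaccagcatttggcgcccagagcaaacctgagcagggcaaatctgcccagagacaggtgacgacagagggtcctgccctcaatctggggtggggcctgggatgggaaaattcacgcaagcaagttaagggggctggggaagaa
The stretch is 225 bases long, and the promoter windows of the 2 genes (250 bases before to 50 after the start) share 275 bases. In GENCODE M21 the exons of Tap1 and Psmb9 overlap by 212 bases on opposite strands, so that a part of the reads of each may belong to the other.

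Psmb8 (ENSMUSG00000024338, chromosome 17, 34197721 to 34201454 on GRCm38) had 116.9, 52.0, 55.1 and 116.4 CPM in A20KIKO-labelled mice 1 to 4, against 25.5, 19.8, 26.8 and 30.0 CPM in A20WT-labelled mice 1 to 4. A20KIKO mice 1 and 4 were well above mice 2 and 3, and even mouse 2, the lowest, stood 1.73 times above the highest A20WT mouse. Psmb8 rose 3.33-fold (95% interval 2.15 to 5.18, log2 change 1.74, edgeR adjusted p = 0.00818). This call was lost without A20WT mouse 1 (adjusted p = 0.0831) and without A20WT mouse 2 (adjusted p = 0.0501), while the log2 change stayed between 1.55 and 1.91 whichever library was left out. Upstream of the RefSeq start of Psmb8, within the span of the GENCODE gene, lay the one match among the members' windows to a GAS, the interferon-gamma activated site TTCNNNGAA, here in capitals with 10 flanking bases on each side. The match began 97 bases before that start (chr17:34198088-34198116, + strand).
Psmb8: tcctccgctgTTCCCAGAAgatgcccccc
A match is only a run of letters: 8.30% of the 32851 RefSeq promoter windows hold one.

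Psmb9 (ENSMUSG00000096727, chromosome 17, 34181987 to 34187764, minus strand) had 114.4, 56.1, 75.6 and 100.2 CPM in A20KIKO-labelled mice 1 to 4, against 38.0, 22.5, 32.2 and 30.9 CPM in A20WT-labelled mice 1 to 4. The lowest A20KIKO mouse was 1.47 times the highest A20WT mouse. Psmb9 rose 2.80-fold (95% interval 2.01 to 3.89, log2 change 1.48, edgeR adjusted p = 0.00272). Psmb10 (ENSMUSG00000031897, chromosome 8, 105935735 to 105938444) lies outside the chromosome 17 cluster and overlaps no exon of another annotated gene. It had 124.5, 67.3, 87.6 and 118.3 CPM in A20KIKO-labelled mice 1 to 4 and 44.3, 22.8, 27.6 and 40.8 CPM in A20WT-labelled mice 1 to 4. Its fold change was 2.94 (95% interval 2.02 to 4.27, log2 change 1.56, edgeR adjusted p = 0.00513), with an interval that overlaps those of Psmb8 and Psmb9. In both genes A20KIKO mice 1 and 4 were the highest and mouse 2 the lowest of their group.

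The standard subunits that these replace did not pass the test. Psmb6 had 394 ± 46.1 CPM in A20KIKO-labelled and 392 ± 90.5 CPM in A20WT-labelled mice (SD, n = 4 each), a log2 change of 0.01 (95% interval -0.34 to 0.36). Psmb7 had 85.1 ± 9.21 CPM in A20KIKO-labelled and 81.4 ± 13.3 CPM in A20WT-labelled mice, a log2 change of 0.06 (95% interval -0.23 to 0.35). Both intervals lie below the lower bounds of Psmb9 and Psmb10. Psmb5 was far more scattered, with 185.9, 206.2, 66.5 and 143.7 CPM in A20KIKO-labelled mice and 250.9, 67.6, 86.6 and 139.6 CPM in A20WT-labelled mice. Its log2 change of 0.15 had an interval of -1.05 to 1.34, too wide to bound its change.

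The standard 20S core, the barrel that holds the catalytic sites, had no gene that passed the test. Of its 14 genes, 0 were called in either direction by edgeR, DESeq2 or limma-voom, and 0 had an unadjusted p under 0.05. The log2 changes ranged from -0.11 to 0.17 with a median of 0.06. Psma7, with Psmb6 one of the most abundant of them, had 395 ± 31.2 CPM in A20KIKO-labelled and 379 ± 78.1 CPM in A20WT-labelled mice. Likewise 0 of 26 genes of the regulatory caps, alternative activators and assembly factors were called by any of these tools, and 0 had an unadjusted p under 0.05. Over all tested genes edgeR called 2.43% higher and 1.06% lower, so 0 calls in lists this short is near the general share. Their log2 changes ran from -0.17 to 0.31 (median 0.03). The cap subunit Psmd2 had 549 ± 11.1 CPM in A20KIKO-labelled and 486 ± 56.8 CPM in A20WT-labelled mice, and Psmd8 had 466 ± 48.4 CPM in A20KIKO-labelled and 504 ± 66.8 CPM in A20WT-labelled mice (SD, n = 4 each). Pomp, the chaperone that helps place the inducible subunits, had a log2 change of 0.06.

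**Figure D2:**
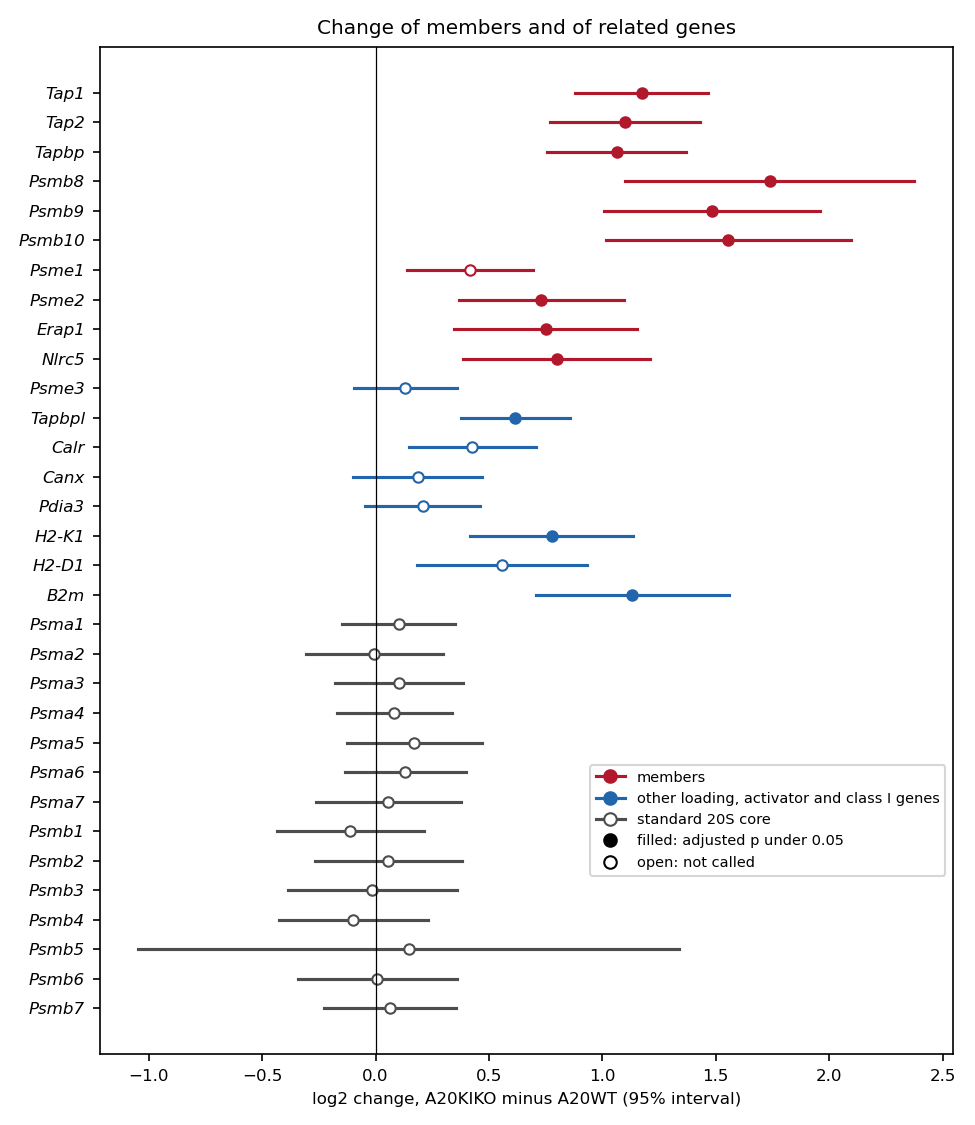
Log2 change, A20KIKO minus A20WT, with its 95% interval for the 10 members (red), related loading, activator and class I genes (blue) and the 14 genes of the standard 20S core (grey). Filled points passed the edgeR test at adjusted p under 0.05. The 10 members lie right of 0, from 0.42 to 1.74, while the core genes lie between -0.11 and 0.17.

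Within a library, the ratio of an inducible subunit to its standard counterpart is free of library scaling. Per kilobase of transcript, Psmb10 made up 53.6, 41.6, 51.4 and 54.4% of the sum of Psmb10 and Psmb7 in A20KIKO-labelled mice 1 to 4, against 28.7, 23.7, 23.2 and 30.3% in A20WT-labelled mice 1 to 4. The groups did not overlap, and the mean log2 ratio of Psmb10 to Psmb7 was 0.01 ± 0.34 in A20KIKO-labelled and -1.48 ± 0.26 in A20WT-labelled mice (SD, n = 4 each). Psmb9 made up 14.6, 6.91, 11.8 and 12.8% of its pair with Psmb6 in A20KIKO-labelled mice, against 4.16, 4.12, 5.21 and 4.41% in A20WT-labelled mice, again without overlap. Psmb8 made up 25.8, 12.2, 31.4 and 30.9% of its pair with Psmb5 in A20KIKO-labelled mice and 5.32, 13.9, 14.6 and 10.6% in A20WT-labelled mice. Here A20KIKO mouse 2 fell inside the A20WT range. The differences in mean log2 ratio were 1.49 for Psmb10 to Psmb7, 1.43 for Psmb9 to Psmb6 and 1.44 for Psmb8 to Psmb5. In the two-sided exact permutation test over 70 regroupings, Psmb10 to Psmb7 and Psmb9 to Psmb6 each reached p = 0.0286, the smallest the design allows, with p = 0.1 after adjustment over the 7 pairs examined. Psmb8 to Psmb5 had an exact permutation p of 0.0857 (adjusted 0.12). None of the 7 pairs passed an adjusted p of 0.05, which would have needed most of the 7 to reach that smallest p together. The shift towards the inducible subunit shows as non-overlapping values for Psmb10 to Psmb7 and Psmb9 to Psmb6, but not for Psmb8 to Psmb5. That non-overlap is the same fact as the smallest p and not a further test.

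**Figure D3:**
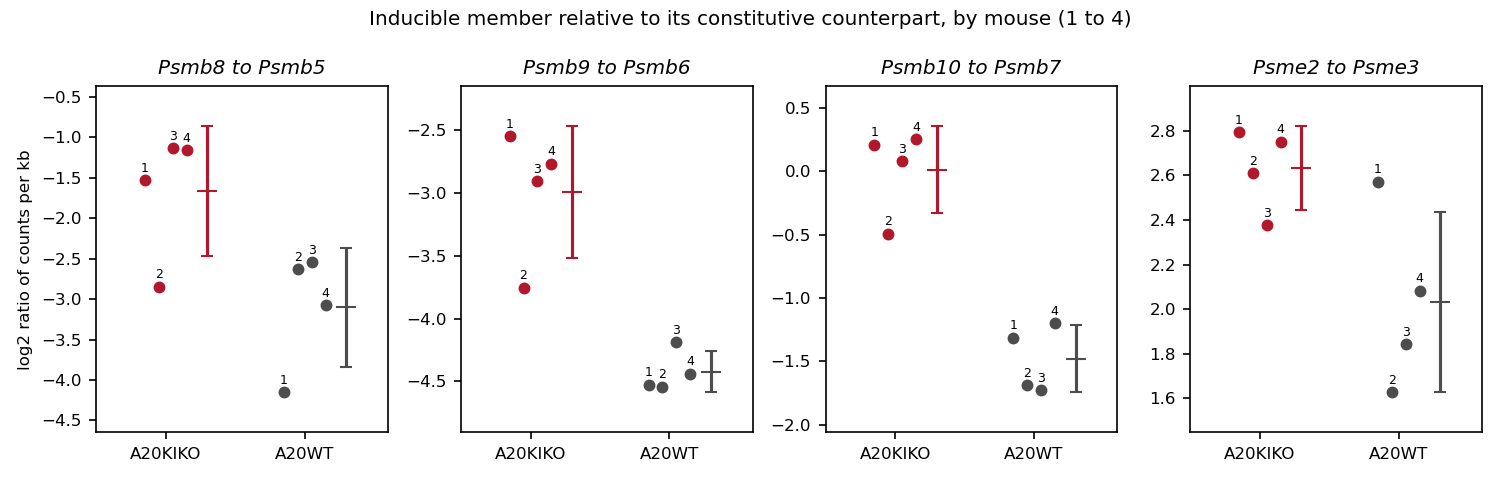
Log2 ratio of counts per kilobase of each inducible gene to its constitutive counterpart in each mouse, with mean ± SD (n = 4) beside the points, A20KIKO left and A20WT right, with an axis of its own for each panel. Psmb9 to Psmb6 and Psmb10 to Psmb7 separate the groups, while A20KIKO mouse 2 overlaps A20WT for Psmb8 to Psmb5 and A20WT mouse 1 overlaps A20KIKO for Psme2 to Psme3.

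Of the genes of the PA28 ring, Psme2 rose and Psme1 did not pass the test. Psme2 (ENSMUSG00000079197, chromosome 14, 55587441 to 55591113) had 501.8, 391.9, 332.1 and 467.0 CPM in A20KIKO-labelled mice 1 to 4, against 327.7, 207.2, 233.7 and 250.8 CPM in A20WT-labelled mice 1 to 4. The groups were apart by a factor of 1.01, A20KIKO mouse 3 lying just above A20WT mouse 1. On average Psme2 rose 1.66-fold (95% interval 1.29 to 2.14, log2 change 0.73, edgeR adjusted p = 0.0315). The call was lost when A20KIKO mouse 1 or 4 or A20WT mouse 2, 3 or 4 was left out (adjusted p = 0.0745 to 0.121). The intronless copy Psme2b on chromosome 11, whose reads may in part belong to Psme2, had 36.8 ± 6.19 CPM in A20KIKO-labelled and 21.3 ± 4.74 CPM in A20WT-labelled mice (SD, n = 4 each; log2 change 0.79, edgeR adjusted p = 0.0255). With the counts of both summed the log2 change was 0.74 (edgeR adjusted p = 0.0309).

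Psme1 (ENSMUSG00000022216, chromosome 14, 55578123 to 55581529) encodes the other subunit of the ring and lies near Psme2. Its exons overlap those of Emc9 by 14 bases on the opposite strand. It had 311.9, 281.0, 271.5 and 273.3 CPM in A20KIKO-labelled mice 1 to 4, against 263.5, 187.6, 188.8 and 212.3 CPM in A20WT-labelled mice 1 to 4. The 4 A20KIKO mice were close to each other, and A20WT mouse 1 stood above the rest of its group. The log2 change of 0.42 (95% interval 0.14 to 0.69, fold change 1.33) missed the threshold (edgeR adjusted p = 0.114). It passed with DESeq2 (adjusted p = 0.044) and without A20WT mouse 1 (edgeR adjusted p = 0.0122). Psme3, which encodes the subunit of a separate, nuclear activator, had 187 ± 11.3 CPM in A20KIKO-labelled and 171 ± 15.1 CPM in A20WT-labelled mice (SD, n = 4 each; log2 change 0.13, 95% interval -0.10 to 0.36). The ratio of Psme2 to Psme3 differed by 0.60 on the log2 scale (exact permutation p = 0.0571, adjusted 0.12), and that of Psme2 to Psme1 by 0.31 (exact permutation p = 0.0857, adjusted 0.12). Neither ratio separated the groups without overlap.

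Psme1 and Erap1 held the only matches among the members to the core of the interferon-stimulated response element, TTTCNNTTT on either strand, which 10.6% of the 32851 windows hold. The match of Psme1 began 9 bases after the RefSeq start (chr14:55578493-55578521, + strand) and that of Erap1 4 bases before it (chr13:74639839-74639867, + strand). Both are shown, with the match in capitals, because among members with a promoter window only they and Psmb8 matched a motif planned for the search.
Psme1: cgagctgtgcTTTCGCTTTcccttcccgc
Erap1: ccaccttcacTTTCACTTTcggtcccggg
RefSeq windows were at hand for 8 of the 10 members, 9 windows in all. An NF-kB-like motif (GGGNNTTNC, in 15.2% of all windows) matched in none of them. The CCAAT box, held by 37.4% of all windows, matched in Psmb9, Tap1 and Tapbp. The GC box, held by 35.7%, matched in Erap1, Psmb9, Psme1, Psme2, Tap1 and Tapbp. For each of these 2 motifs, the match of Psmb9 and that of Tap1 are one site, the one in capitals in the shared stretch above. Those 2 motifs were added after the sequences had been seen, and all motifs were searched on both strands.

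Tap1 and Tap2 encode the chains of the peptide transporter, and both rose by similar factors. Tap1 (ENSMUSG00000037321, chromosome 17, 34187553 to 34197225) had 282.9, 194.2, 241.5 and 283.8 CPM in A20KIKO-labelled mice 1 to 4, against 103.4, 106.5, 110.2 and 124.6 CPM in A20WT-labelled mice 1 to 4. Its 4 A20WT values lay within a factor of 1.21, and the lowest A20KIKO mouse was 1.56 times the highest of them. Tap1 rose 2.25-fold (95% interval 1.84 to 2.76, log2 change 1.17), with the smallest p of the 10 genes (edgeR adjusted p = 0.000924). Tap2 (ENSMUSG00000024339, chromosome 17, 34203527 to 34216321) had 118.9, 78.0, 96.5 and 122.3 CPM in A20KIKO-labelled mice 1 to 4, against 40.4, 49.3, 49.7 and 54.5 CPM in A20WT-labelled mice 1 to 4. Tap2 rose 2.14-fold (95% interval 1.70 to 2.70, log2 change 1.10, edgeR adjusted p = 0.00204). The ratio of Tap1 to Tap2 per kilobase differed by 0.07 on the log2 scale (exact permutation p = 0.286), and its range in A20KIKO mice lay inside that in A20WT mice. The ratio of Tap1 to Psmb9, across the shared stretch printed above, differed by -0.30 (exact permutation p = 0.229, adjusted 0.267).

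Tapbp (ENSMUSG00000024308, chromosome 17, 33915899 to 33929292) encodes tapasin, which bridges TAP and class I molecules. It had 856.4, 576.8, 703.8 and 775.2 CPM in A20KIKO-labelled mice 1 to 4, against 305.6, 365.3, 336.1 and 387.3 CPM in A20WT-labelled mice 1 to 4. The lowest A20KIKO mouse stood 1.49 times above the highest A20WT mouse. Tapbp rose 2.09-fold (95% interval 1.69 to 2.58, log2 change 1.06, edgeR adjusted p = 0.00183). Zbtb22, whose exons share up to 904 bases with Tapbp on the same strand, had 40.6 ± 2.61 CPM in A20KIKO-labelled and 42.8 ± 1.76 CPM in A20WT-labelled mice (SD, n = 4 each).

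Psmb9, Tap1, Psmb8 and Tap2 sit in this order in 34.3 kb of the MHC class II region on chromosome 17 (34181987 to 34216321). Of 9 protein-coding neighbours within 100 kb of this block, 0 were called by edgeR, DESeq2 or limma-voom, and 1 had an unadjusted p under 0.05. With 2.43% of all tested genes called higher and 1.06% lower by edgeR, 0 of 9 is near the general share. The neighbours had log2 changes of 0.02 to 1.17 with a median of 0.16. The highest value was that of H2-Ob, at a mean of 0.424 CPM, and the class II genes H2-Ab1, H2-Aa and H2-Eb1, which Langerhans cells express, had 0.16, 0.17 and 0.15. The look at the neighbours was chosen after the values of the block had been seen.

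**Figure D4:**
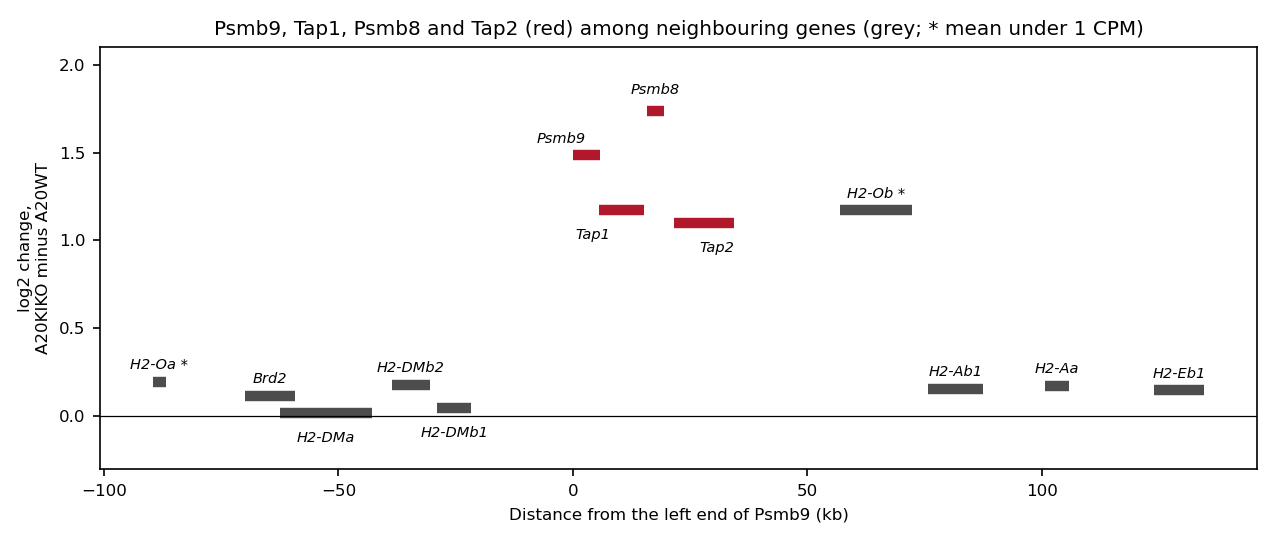
Log2 change, A20KIKO minus A20WT, of Psmb9, Tap1, Psmb8 and Tap2 (red) and of the 9 protein-coding neighbours within 100 kb (grey), drawn as bars over the span of each gene in kb from the left end of Psmb9. An asterisk marks a mean under 1 CPM. The red bars lie between 1.10 and 1.74 and, but for H2-Ob, the grey bars lie between 0.02 and 0.20.

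Erap1 and Nlrc5, which rank lowest of the 10 per kilobase, both rose. Erap1 (ENSMUSG00000021583, chromosome 13, 74639568 to 74693201) encodes the aminopeptidase of the endoplasmic reticulum that trims peptides to class I length. It had 54.3, 33.3, 41.8 and 54.4 CPM in A20KIKO-labelled mice 1 to 4, against 20.4, 32.1, 30.8 and 26.1 CPM in A20WT-labelled mice 1 to 4. A20KIKO mouse 2 was only 1.04 times A20WT mouse 2. The fold change was 1.68 (95% interval 1.27 to 2.23, log2 change 0.75, edgeR adjusted p = 0.0475). The call was lost when A20KIKO mouse 1, 3 or 4 or A20WT mouse 1, 3 or 4 was left out (adjusted p = 0.0772 to 0.163). Cast, whose exons overlap those of Erap1 by 834 bases on the opposite strand, was more abundant, with 342 ± 28.1 CPM in A20KIKO-labelled and 290 ± 63.8 CPM in A20WT-labelled mice (SD, n = 4 each; edgeR adjusted p = 0.534). The share of reads assigned between these 2 genes is therefore uncertain.

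Nlrc5 (ENSMUSG00000074151, chromosome 8, 94434356 to 94527272) encodes the transactivator of class I genes. It had 47.1, 34.6, 34.0 and 44.5 CPM in A20KIKO-labelled mice 1 to 4, against 15.2, 27.4, 27.2 and 22.3 CPM in A20WT-labelled mice 1 to 4. The A20KIKO mice fell into a higher pair, 1 and 4, and a lower pair, 2 and 3, and A20WT mouse 1 was the lowest of the 8. The fold change was 1.74 (95% interval 1.31 to 2.32, log2 change 0.80, edgeR adjusted p = 0.0383). The call was lost when A20KIKO mouse 1 or 4 or A20WT mouse 3 or 4 was left out (adjusted p = 0.0564 to 0.135).

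Per kilobase of transcript, the order of the 10 genes was the same in both groups. Psme2 was the highest, with 440 ± 79.1 CPM per kb in A20KIKO-labelled and 265 ± 53.8 CPM per kb in A20WT-labelled mice (SD, n = 4 each). Psme1 had 256 ± 16.9 CPM per kb in A20KIKO-labelled mice and 192 ± 31.9 CPM per kb in A20WT-labelled mice. Tapbp had 251 ± 40.9 CPM per kb in A20KIKO-labelled mice and 120 ± 12.2 CPM per kb in A20WT-labelled mice. Psme1 and Tapbp differed by less than their spread in A20KIKO mice, while in A20WT mice they were apart.
Tap1 followed, with 84.9 ± 14.4 CPM per kb in A20KIKO-labelled and 37.6 ± 3.18 CPM per kb in A20WT-labelled mice. The inducible subunits came next, with levels per kb of 75.9 ± 20.4 (Psmb10), 64.1 ± 19.2 (Psmb9) and 52.3 ± 22.4 (Psmb8) in A20KIKO-labelled mice. In A20WT-labelled mice they had 25.8 ± 7.86 (Psmb10), 22.9 ± 4.74 (Psmb9) and 15.7 ± 2.64 (Psmb8) CPM per kb. Neighbours among Tap1 and these 3 did not differ beyond their spread in A20KIKO mice. Tap2 had 30.2 ± 6.02 CPM per kb in A20KIKO-labelled and 14.1 ± 1.72 CPM per kb in A20WT-labelled mice, where it and Psmb8 differed by less than their spread. Erap1 had 8.14 ± 1.83 CPM per kb in A20KIKO-labelled and 4.84 ± 0.936 CPM per kb in A20WT-labelled mice. Nlrc5 closed the order, with 5.28 ± 0.888 CPM per kb in A20KIKO-labelled and 3.04 ± 0.752 CPM per kb in A20WT-labelled mice.

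Averaged over the 10 genes, the level spanned a wider range among the 4 A20KIKO mice than among the 4 A20WT mice. This did not hold for each gene. The ratio of the highest to the lowest mouse was larger in A20WT mice for Psmb10, Psme1, Psme2 and Nlrc5. It was larger in A20KIKO mice for Tap1, Tap2, Tapbp, Psmb8, Psmb9 and Erap1. The mean log2 level of the 10 genes, relative to the A20WT mean, was 1.37, 0.72, 0.90 and 1.29 in A20KIKO-labelled mice 1 to 4, against 0.00, -0.12, 0.01 and 0.11 in A20WT-labelled mice 1 to 4. Summed over the 10 genes, normalised counts were 2529, 1765, 1940 and 2355 CPM in A20KIKO-labelled mice, against 1184, 1040, 1063 and 1180 CPM in A20WT-labelled mice. A20KIKO mice 1 and 4 were both above mice 2 and 3 in 9 of the 10 genes, Psme1 being the exception, and in 22.4% of all tested genes. They were also the deepest of the A20KIKO libraries, with totals of 86290868 and 89106039 against 58156350 and 40451075 counts for mice 2 and 3. Among A20WT libraries, the deeper pair, mice 1 and 3, was above the other pair in 1 of the 10 genes and in 17.5% of all tested genes. The part of depth or of cell content in this split was not tested. A20WT mouse 1 was the highest of its group in 14 of the 14 core genes and in 4 members (Psmb9, Psmb10, Psme1 and Psme2), and the lowest in 5 (Tap1, Tap2, Tapbp, Erap1 and Nlrc5). Those 5 have the longest transcripts of the 10.

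**Figure D5:**
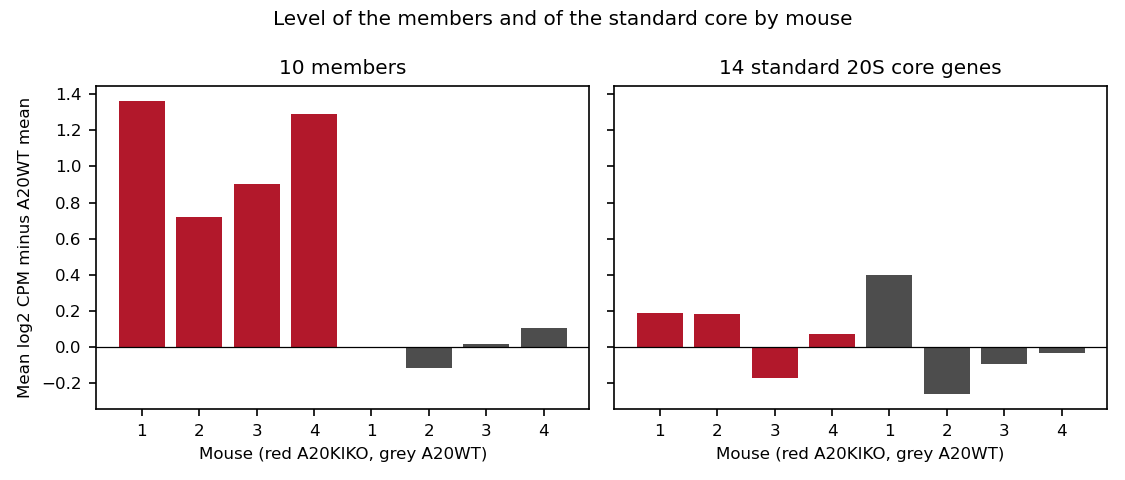
Mean log2 CPM minus the A20WT mean, by mouse, for the 10 members (left) and the 14 genes of the standard 20S core (right), with bars from 0, A20KIKO in red and A20WT in grey. Members lie between 0.72 and 1.37 in A20KIKO mice and between -0.12 and 0.11 in A20WT mice, while core levels run from -0.17 to 0.19 in A20KIKO mice and from -0.27 to 0.40 in A20WT mice.

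Of the molecules that receive the peptides, B2m, the light chain of class I, rose most. It had 1252, 689, 746 and 1110 CPM in A20KIKO-labelled mice 1 to 4, against 466, 350, 489 and 425 CPM in A20WT-labelled mice 1 to 4, without overlap (fold change 2.19, log2 change 1.13, edgeR adjusted p = 0.00652). The heavy chain gene H2-K1 had 2071, 1363, 1777 and 2188 CPM in A20KIKO-labelled mice, against 1117, 884, 1087 and 1232 CPM in A20WT-labelled mice (log2 change 0.78, edgeR adjusted p = 0.0207). Leaving out A20KIKO mouse 1, A20KIKO mouse 4, A20WT mouse 2 or A20WT mouse 3 ended this call (adjusted p = 0.0528 to 0.0845). H2-D1 had 2924 ± 584 CPM in A20KIKO-labelled and 1985 ± 330.3 CPM in A20WT-labelled mice (SD, n = 4 each), overlapped between the groups and did not pass (log2 change 0.56, edgeR adjusted p = 0.116), though it did by DESeq2 (adjusted p = 0.026). H2-K1 and H2-D1 are close paralogs, so the split of reads between them is uncertain.

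Of 12 further genes of the loading complex and of cytosolic and other peptidases, 1 was higher and 0 were lower by edgeR. Over all tested genes edgeR called 2.43% higher and 1.06% lower. Of the 12, 2 were higher and 0 lower by DESeq2, and 4 were higher and 0 lower at an unadjusted p under 0.05. Tapbpl, which encodes the tapasin-related editor TAPBPR, was the one called by edgeR, with 110 ± 10.9 CPM in A20KIKO-labelled and 71.7 ± 6.49 CPM in A20WT-labelled mice (SD, n = 4 each; log2 change 0.62, edgeR adjusted p = 0.00842). The loading chaperones had smaller values. Calr (calreticulin) had a log2 change of 0.43 (edgeR adjusted p = 0.109, DESeq2 adjusted p = 0.0291), Pdia3 of 0.21 and Canx of 0.19. The median of the 12 was 0.22.

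A list of 13 regulators held factors of the interferon response, factors that work with NLRC5, and its class II counterpart. Of the 13, 3 were higher and 0 lower by edgeR, against 2.43% of all tested genes higher and 1.06% lower. By DESeq2 4 were higher, which added Irf8, and 0 were lower at an unadjusted p under 0.05 or by DESeq2 or limma-voom. The 3 called by edgeR take part in the interferon response. Irf1, which binds interferon response elements, had 67.4, 42.4, 52.7 and 78.6 CPM in A20KIKO-labelled mice 1 to 4, against 11.5, 14.7, 16.7 and 19.7 CPM in A20WT-labelled mice 1 to 4 (log2 change 1.95, edgeR adjusted p = 0.00058). Irf9 and Stat2, whose products act together in the response to type I interferon, had log2 changes of 1.43 (edgeR adjusted p = 0.000592) and 1.68 (edgeR adjusted p = 0.00184). In each of the 3, A20KIKO mice 1 and 4 again lay above mice 2 and 3.
The factors that NLRC5 works with on class I promoters did not pass. Rfx5, Rfxap and Rfxank had log2 changes of 0.33, -0.26 and -0.28, and Nfya, Nfyb and Nfyc of 0.22, 0.09 and 0.03. Ciita, the class II counterpart of Nlrc5, had 9.54 ± 2.24 CPM in A20KIKO-labelled and 7.84 ± 1.94 CPM in A20WT-labelled mice (SD, n = 4 each; log2 change 0.29, 95% interval -0.19 to 0.76). Its interval overlaps that of Nlrc5.

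Outside the 10 members, the genes whose profile over the 8 libraries came nearest to the mean profile of the 10 members were Cxcl16, H2-T22, Slc10a6, Rnf114 and B2m. Nearness was the root-mean-square difference in log2 level among the 10327 genes whose mean reached 5 CPM, and it was 0.0862 for Cxcl16, 0.103 for H2-T22, 0.123 for Slc10a6, 0.124 for Rnf114 and 0.133 for B2m. Cxcl16, which encodes a chemokine of epithelial and antigen-presenting cells, had 142.0, 96.1, 118.4 and 134.7 CPM in A20KIKO-labelled mice 1 to 4, against 53.2, 55.8, 62.1 and 65.6 CPM in A20WT-labelled mice 1 to 4. H2-T22 is a non-classical class I gene with close relatives, so its count is uncertain. Their log2 changes lay between 0.98 and 1.20, which the choice by nearness to the members fixes.

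Markers of other cells moved with the members in part. Markers shared by leukocytes, which express most of these genes at high levels, summed to 388 to 544 CPM in A20KIKO-labelled and 310 to 382 CPM in A20WT-labelled libraries, and 0 of 10 were called by edgeR (4 higher at an unadjusted p under 0.05, 1 by DESeq2, 0 by limma-voom). All 10 of these markers had a positive log2 change, with a median of 0.42, beside -0.01 over all tested genes. Langerhans cell markers summed to 2615 to 2868 CPM in A20KIKO-labelled and 2122 to 2704 CPM in A20WT-labelled libraries, with 0 of 6 called by edgeR (1 at an unadjusted p under 0.05, 1 by DESeq2, 0 by limma-voom). Cd207, the defining one, had 72.8 ± 6.32 CPM in A20KIKO-labelled and 63.7 ± 4.70 CPM in A20WT-labelled mice (SD, n = 4 each). T cell markers summed to 121 to 132 CPM in A20KIKO-labelled and 114 to 140.2 CPM in A20WT-labelled libraries, with 0 of 9 called by edgeR (2 at an unadjusted p under 0.05, 0 by DESeq2 or limma-voom). Those 2 were Trac (means 4.60 CPM in A20KIKO-labelled and 2.59 CPM in A20WT-labelled mice, log2 change 0.83, edgeR adjusted p = 0.208) and Cd8a (1.43 and 0.51 CPM, log2 change 1.46, edgeR adjusted p = 0.288). Of the 9 log2 changes 5 were positive, and the median was 0.05.
Macrophage markers summed to 107 to 152 CPM in A20KIKO-labelled and 60.8 to 106 CPM in A20WT-labelled libraries. Of the 10 that could be tested of 13, edgeR called 4 higher, against 2.43% of all tested genes. These were C1qa, C1qb, C1qc and Ly6c2, each at a mean under 10 CPM in both groups. DESeq2 called 6 higher and limma-voom 4, and 7 were higher at an unadjusted p under 0.05. Neutrophil markers summed to 94.3 CPM in A20KIKO mouse 4, to 9.81 to 12.7 CPM in the other A20KIKO-labelled libraries and to 3.57 to 13.1 CPM in the A20WT-labelled ones, with Elane at 0 throughout and 1 of 9 abundant enough to test. Dendritic cell markers summed to 2.92 to 5.79 CPM in A20KIKO-labelled and 2.95 to 3.93 CPM in A20WT-labelled libraries, with Clec9a at 0. Markers of NK and B cells summed to 17.7 to 21.7 CPM in A20KIKO-labelled and 14.9 to 20.02 CPM in A20WT-labelled libraries. Endothelial markers summed to 2.45 to 4.74 CPM in A20KIKO-labelled and 1.86 to 5.17 CPM in A20WT-labelled libraries. For the neutrophil, dendritic, NK and B, and endothelial lists 0 genes were called by edgeR, DESeq2 or limma-voom, and 0 had an unadjusted p under 0.05.
Fibroblast markers summed to 15.1 to 36.7 CPM in A20KIKO-labelled and 39.7 to 55.3 CPM in A20WT-labelled libraries, with 0 of 5 tested called by edgeR (4 lower at an unadjusted p under 0.05, 3 by DESeq2, 2 by limma-voom). Melanocyte markers summed to 45.9 to 222 CPM in A20KIKO-labelled and 40.9 to 56.4 CPM in A20WT-labelled libraries, highest in A20KIKO mouse 2, where the mean level of the members was lowest in its group. Of these 5 markers 0 were called by edgeR (4 higher at an unadjusted p under 0.05, 3 by DESeq2, 0 by limma-voom). Of the 6 basal keratinocyte markers, edgeR called 1 lower, against 1.06% of all tested genes. Of the same 6 markers, limma-voom called 1 lower, DESeq2 called 2 lower, and 2 were lower at an unadjusted p under 0.05. None was called higher by these tools, none was higher at an unadjusted p under 0.05, and the log2 changes ran from -0.83 to 0.13. The 1 called by edgeR was Krt5, with 3512 ± 133 CPM in A20KIKO-labelled and 6227 ± 575 CPM in A20WT-labelled mice (SD, n = 4 each; log2 change -0.83, edgeR adjusted p = 0.00272). Within A20KIKO, macrophage markers summed to 152, 107, 134 and 144 CPM in mice 1 to 4, the same order as the mean level of the members. Leukocyte markers summed to 465, 388, 404 and 544 CPM. Mice 1 and 4 were above mice 2 and 3 in these sums and in the Langerhans, T cell, dendritic and neutrophil sums. The other lists did not show this split. Cxcr2 made up nearly all of the neutrophil sum except in A20KIKO mouse 4, with 12.5, 9.54, 9.63 and 48.6 CPM in A20KIKO mice 1 to 4. Csf1r, the largest part of the macrophage sums, had 80.4, 78.8, 88.4 and 72.8 CPM in those mice and did not follow the split. The part of any of these cells in the rise of the members, or in that split, was not tested.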

How the data were processed

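RNA of ear epidermal sheets from 8 mice was analysed from the raw counts per Ensembl mouse gene that the authors deposited, with 2 lane columns per library that were summed here. The submitters' processing notes list GRCh38 and GRCm38.p5 as builds and HTSeq 0.6.1p1, Picard 1.139 and STAR 2.4.2a as tools, with no role for any. Annotation and counting options: not given in the sources used here. Of 51912 identifiers 51633 matched a symbol and a GENCODE M21 position. Counts were fitted in R 4.3.3 with edgeR 4.0.16 (filterByExpr with a minimum count of 10 and a total of 15, TMM scaling, robust quasi-likelihood, group as the only term, all 8 libraries), and p-values were adjusted over all 16512 genes. CPM per kb used the length of the principal transcript, and 0.5 was added to each count in ratios. Alternatives used DESeq2 1.42.0, limma-voom (limma 3.58.1), other scalings and filters, each lane alone, a test against a 1.5-fold change and each library left out. Tables and plots were made with NumPy 2.4.6, pandas 2.3.3 and Matplotlib 3.10.9 in Python 3.11.15, and the fit was tested on simulated counts.

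All 10 members were named by rule; of other lists the rule named called genes (up to 6), or the 2 most abundant where none was called, the standard counterparts and the 5 nearest profiles. Other genes named were chosen after their values were seen. One listed transcription factor is not reported here. The members and lists were chosen with earlier results of these data known. Nothing in the labels says that equal numbers pair mice, so the numbers were not taken to pair them. Mice of the same number deviated with correlations of -0.01 to 0.24, and mice of different numbers with correlations of -0.24 to 0.23. P-values cover the spread between mice, and without molecular identifiers the counting error is a lower bound.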

Additional observations from a re-analysis of the deposited data

Results flagged for a closer look

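One value stood apart from its group among the 56 sets of 4 libraries examined (members and named related genes, each group apart). Stat2 had 13.8 CPM in A20WT mouse 1, against 22.2 to 23.2 CPM in the other A20WT mice; the gap exceeded Dixon's 95% critical value for 4 samples, which chance passes in about 1 of 20 sets. The same mouse was the lowest of its group for Tap1, Tap2, Tapbp, Erap1 and Nlrc5 and the highest for the 14 genes of the standard core.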

How the results depend on the processing

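Under 19 alternative settings each of the 10 members kept a positive log2 change. Tap1, Tap2, Tapbp, Psmb9 and Psmb10 were called in 19 of 19, Psmb8 in 17, Psme2 and Nlrc5 in 12, Erap1 in 7 and Psme1 in 2. The count of members called higher ranged from 6 to 10, with 6 to 9 when a library was left out, and 0 were lower in every setting. With the replicate number as a block, 7 members were called by edgeR, as Erap1 (adjusted p = 0.108) and Nlrc5 (adjusted p = 0.0834) were lost. The ratios had paired exact adjusted p of 0.219 to 0.375 with that block. With so few pairs this paired test cannot fall under 0.05 whatever the values, so it decides nothing about the ratios. Against a 1.5-fold change the class I molecules went to 0 called of 3 and the loading and peptidase genes to 0 of 12, while DESeq2 called 2 of those 12; the class I count was 1 to 2 with a library left out. The cause was not tested. The lowest count of any member in any library was 1096, and the part of depth and of the number of mice in the lost calls was not tested.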
